A study of Homo sapiens with 28 samples.

Results

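Embryonal carcinoma (EC) cells are the stem cells of testicular germ cell tumours, and established EC lines differ in whether they can still differentiate in culture. The comparison described here sets 3 lines that differentiate little or not at all (2102Ep, 833KE and TERA1, called nullipotent) against 2 lines that are known to differentiate (NCCIT and NTERA2, called competent). All 5 grew on plastic, and they are 5 of the 14 gene-level arrays of the study. The lines were placed by what is known of each line, not by the study's labels, and differentiation itself was not measured on these arrays. The other gene-level arrays are 6 embryonic stem (ES) cell lines (H14, Shef5, Shef 6, Shef3, H9 and Shef7) and the EC lines 2102Ep, 833KE and NTERA2 on feeders.

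Plastic-grown EC cells were kept in high-glucose DMEM with fetal calf serum, while ES cells and feeder-grown EC cells were kept on mouse embryo fibroblasts made inactive with mitomycin C, in knock-out DMEM with serum replacement and FGF. Every culture had been sorted for the surface antigen SSEA3 before its total RNA went onto Affymetrix Human Exon 1.0 ST arrays. Each line contributed 1 array per growth condition. A replicate is therefore a different tumour line, not a repeat of a culture, and what belongs to 1 line cannot be told apart from what belongs to its group where that line decides a mean. In bulk RNA, fewer cells that express a gene and less RNA per cell cannot be told apart either. The deposited level of each of 22011 transcript clusters is a log2 value, so a difference of 1 is a 2-fold change, and levels of different genes are not compared. The array medians lay between 6.19 and 6.39.

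Pluripotent cells keep POU5F1, SOX2 and NANOG switched on and hold the programmes of the germ layers in check. Epithelial cells hold together through E-cadherin and claudins, and the repressors ZEB1, ZEB2 and SNAI2 turn these genes off when cells take on a mesenchymal form. The p53 protein switches on genes for arrest, repair and death after damage, and germ cell tumours are known for carrying it mostly unmutated.

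All 5 lines expressed most of the measured pluripotency and EC markers. Of 19 measured pluripotency and EC markers, 19 were above the array median in 2102Ep, 833KE and TERA1, 18 in NTERA2 and 17 in NCCIT. The ES lines had 17 to 19, so this count does not set EC lines apart from ES lines. SOX2 and NANOG, read from exon-level probesets because no cluster carries their symbol alone, had median levels of 10.70, 10.51, 9.90, 10.83 and 9.97 (SOX2) and 10.89, 12.00, 11.12, 12.35 and 11.09 (NANOG) in 2102Ep, 833KE, TERA1, NCCIT and NTERA2. Neither gene separated the groups. The probeset of POU5F1 with the highest level read 9.17, 9.28, 9.19, 8.04 and 9.07 in the same order, lowest in NCCIT. The median over its 4 probesets went another way, at 4.48, 5.19, 5.19, 5.67 and 5.60, highest in NCCIT. Its other probesets read at or below 6.90 on plastic.

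The nullipotent lines resembled one another more than the competent lines did. Across all clusters the 3 pairs of nullipotent lines correlated with r from 0.970 to 0.974 and had 1595 to 1856 clusters at least 2-fold apart. NCCIT and NTERA2 correlated with r = 0.950 and had 3154 clusters (14.3%) that far apart. NTERA2 lay closer to each nullipotent line than to NCCIT, with r = 0.965, 0.957 and 0.953 for 2102Ep, 833KE and TERA1. These pairs had 2218, 2786 and 3042 clusters at least 2-fold apart. These are descriptions over clusters, which are not independent. NCCIT was at least 4-fold above every other line at 87 clusters and 4-fold below at 40. The 2 competent lines thus differed from each other more than any 2 nullipotent lines did.

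With 3 arrays against 2, limma called 3 of 22011 clusters at an adjusted p of 0.05, which is 0.0136% of them, and 2611 (11.9%) had an unadjusted p under 0.05. The called genes are MT1G and LCP1, higher in the nullipotent lines (0.00909% of clusters), and ZEB1, lower (0.00454%). Leaving out any of 2102Ep, 833KE, TERA1 or NCCIT brought limma's number of calls to 0, with 1914 to 2332 clusters at an unadjusted p under 0.05, and leaving out NTERA2 brought it to 5, none of which was among the 3. The arrays can be split 3 against 2 in only 10 ways, and an exact rank test of a single gene cannot go below 0.2 (two-sided). The rest of the description therefore rests on a rule of size with no test, that all 3 nullipotent arrays lie on one side of both competent arrays and that the means differ at least 2-fold. By this rule 487 clusters (2.21%) were higher and 846 (3.84%) lower in the nullipotent lines, 6.06% in all. The split moved with the scaling: with each array centred on its median, 612 clusters were higher and 687 lower. Without NTERA2, which left NCCIT as the only competent line, 3014 clusters met the rule.

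LCP1, or L-plastin, bundles actin in blood cells and in many tumour cells. LCP1 read 10.73 in 2102Ep, 10.79 in 833KE and 11.31 in TERA1, and 5.20 in NCCIT and 4.57 in NTERA2. The 3 nullipotent lines lay far above both competent lines, with no overlap. LCP1 rose by 6.06 ± 0.30 on the log2 scale (SE), a 66.6-fold difference (limma, adjusted p = 0.0322). The ES lines (5.65 ± 0.67, SD, n = 6) were near the competent lines. All 21 probesets of LCP1 on the exon level, which measure the same RNA, separated the groups in this direction, beside 13.2% of all probesets. On feeders LCP1 was at 9.29 in 2102Ep and 9.73 in 833KE against 4.68 in NTERA2.

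MT1G is a metallothionein, a small protein that binds zinc and copper. MT1G read 11.73, 12.48 and 12.41 in 2102Ep, 833KE and TERA1, against 6.23 in NCCIT and 5.60 in NTERA2. The difference of 6.29 ± 0.33 (SE, adjusted p = 0.0322) was the largest of all named genes, at 78.4-fold. In the ES lines MT1G lay between the groups and varied widely (9.02 ± 1.52, SD, n = 6). Metallothionein genes are nearly identical in sequence, so the array may read several of them at once, and single members are uncertain. Among 7 measured genes of the metallothionein list, which also holds the zinc exporter SLC30A1, 3 were at least 2-fold higher (MT1G, MT1L and MT4; 42.9%, beside 2.21% of all clusters) and none lower. At gene level MT1L read 6.94, 7.79 and 7.91 in the nullipotent lines, 1.60 in NCCIT and 5.88 in NTERA2, lowest by far in NCCIT. Its 5 exon-level probesets had higher medians and a smaller gap. They were 11.44, 12.28 and 12.44 in the nullipotent lines, 9.40 in NCCIT and 10.69 in NTERA2.

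ZEB1, the repressor of epithelial genes, fell in the nullipotent lines. ZEB1 read 3.07 in 2102Ep, 3.29 in 833KE and 3.24 in TERA1, and 6.61 in NCCIT and 6.45 in NTERA2. The lines within each group differed little, and ZEB1 fell by 3.33 ± 0.19 (SE), a 10.0-fold difference (limma, adjusted p = 0.0322). All 12 of its probesets separated the groups downward, beside 15.1% of all probesets. The ES lines had 4.17 ± 0.55 (SD, n = 6), nearer the nullipotent lines. On feeders the gene was at 3.15 in 2102Ep and 3.07 in 833KE against 5.72 in NTERA2. With arrays centred on their medians ZEB1 missed the threshold narrowly (adjusted p = 0.05002), and without any single array the adjusted p of the 3 called genes lay between 0.0533 and 0.316.

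**Figure D1:**
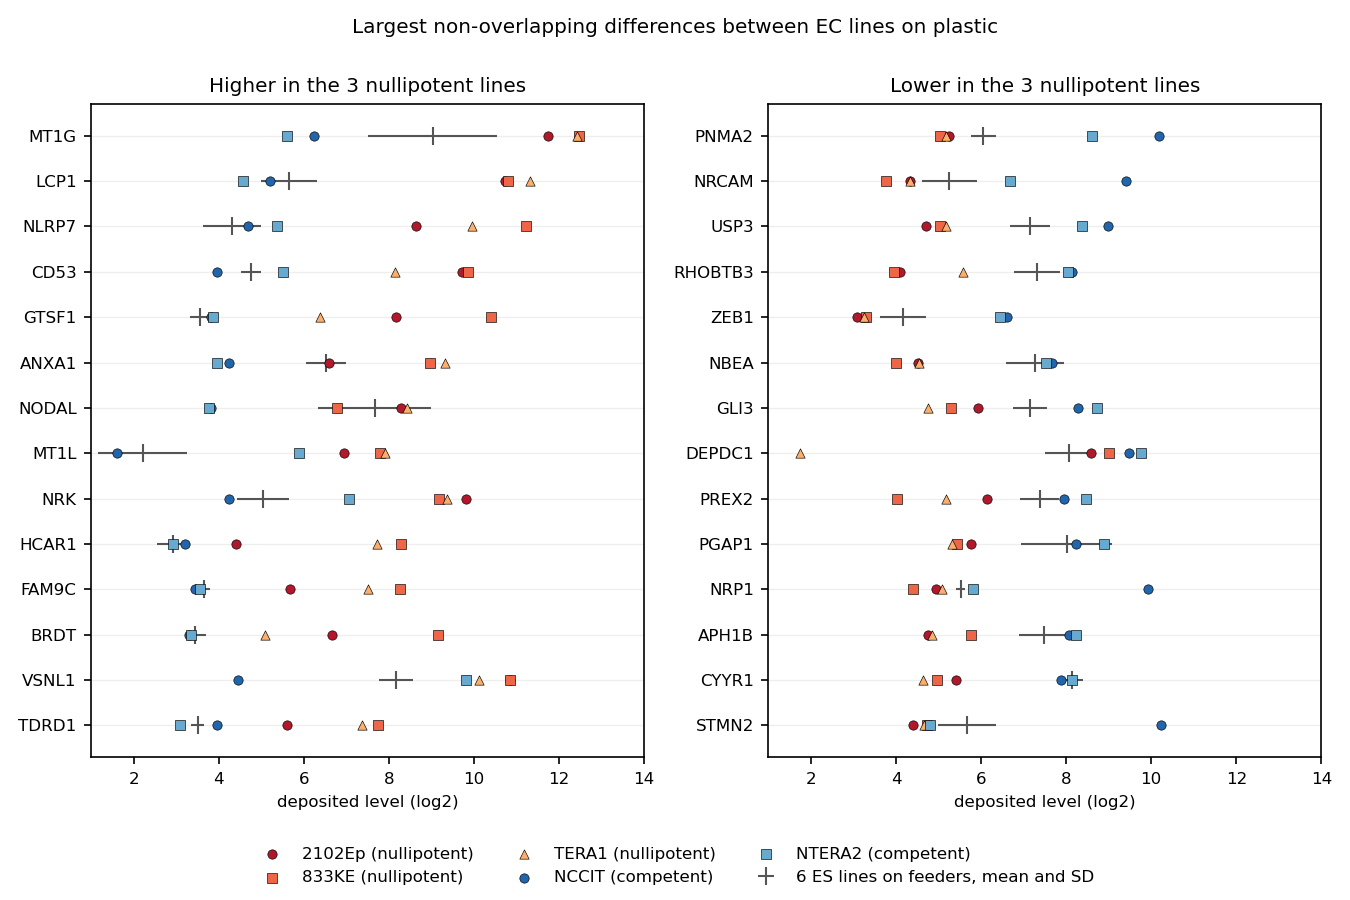
Deposited log2 level (horizontal axis) of the 14 genes with the largest higher and the 14 with the largest lower differences in the nullipotent lines, with 1 point for each EC line on plastic and the mean and SD of 6 ES lines on feeders. MT1G, LCP1 and ZEB1 passed the test. DEPDC1 is low in TERA1 alone, and STMN2 and NRP1 are high mainly in NCCIT.

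The genes that accompany ZEB1 split by what they are known to do. Of 26 measured epithelial and mesenchymal transition genes, 6 were at least 2-fold higher in the nullipotent lines and 6 at least 2-fold lower, 23.1% each way beside 2.21% and 3.84% of all clusters. The 6 higher ones are epithelial genes: E-cadherin (CDH1), the claudins CLDN4, CLDN6 and CLDN7, keratin 19 (KRT19) and the epithelial splicing factor ESRP1. The 6 lower ones are mesenchymal genes or their regulators: ZEB1, ZEB2, SNAI2, N-cadherin (CDH2), vimentin (VIM) and fibronectin (FN1). Only ZEB1 passed the test. The counts without each array were 5 to 10 higher and 5 or 6 lower, the highest without NTERA2. A separate list of 28 fibroblast and matrix genes showed no common direction. On it 2 genes were 2-fold higher (7.14%) and 4 lower (14.3%), with a median difference of -0.04. The collagen gene COL1A2 was higher, at 7.46, 6.99 and 7.74 in 2102Ep, 833KE and TERA1, against 5.49 in NCCIT and 6.31 in NTERA2.

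CLDN7, a tight junction protein, read 10.10, 8.54 and 9.11 in 2102Ep, 833KE and TERA1, and 6.68 in NCCIT and 6.61 in NTERA2. CDH1 read 10.58, 10.43 and 9.77 in the nullipotent lines, 6.48 in NCCIT and 9.20 in NTERA2. For CLDN7 both competent lines were low, and for CDH1 mainly NCCIT was, since NTERA2 lay just below TERA1. ESRP1 read 10.75, 10.97 and 10.84, against 8.18 in NCCIT and 9.68 in NTERA2, with the same order of the competent lines. The differences were 2.60 ± 0.47 for CLDN7, 2.42 ± 0.80 for CDH1 and 1.93 ± 0.45 for ESRP1 (SE; adjusted p = 0.231, 0.361 and 0.272).

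VIM, an intermediate filament protein of mesenchymal cells, read 6.43, 7.86 and 7.20 in the nullipotent lines, 9.83 in NCCIT and 9.02 in NTERA2. SNAI2 read 4.34, 4.03 and 4.24, against 6.75 and 5.72. CDH2 read 6.50, 4.53 and 7.12, against 9.80 and 7.64, and ZEB2 read 4.59, 4.43 and 4.63, against 7.65 and 4.97. VIM and SNAI2 were clearly high in both competent lines, whereas CDH2 and ZEB2 were high mainly in NCCIT. The ES lines were not on one side. Their mean of VIM (9.59 ± 0.64) lay between the competent lines, that of CDH2 (9.82 ± 0.57) at the level of NCCIT and above NTERA2, and those of CDH1 (10.52 ± 0.17) and ESRP1 (10.16 ± 0.30) nearer the nullipotent than the competent mean (SD, n = 6).

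ZEB1 is known to bind the E-box CAGGTG in promoters of epithelial genes. The 250 bases before the starts of CLDN7, CLDN4 and CLDN6 in RefSeq (GRCh38.p14) were therefore searched for it on both strands. AP1M2, GALNT3, LCP1 and MT4 were searched in the same way, and CDH1, KRT19 and ESRP1 were not searched. CLDN7 is shown because it has the largest difference of the epithelial genes, and its 2 annotated starts differ in this motif; matches are in capitals. The first window is chr17:7262479-7262728 and the second chr17:7263214-7263463, both on the minus strand and written in the direction of the gene.
CLDN7, start with matches: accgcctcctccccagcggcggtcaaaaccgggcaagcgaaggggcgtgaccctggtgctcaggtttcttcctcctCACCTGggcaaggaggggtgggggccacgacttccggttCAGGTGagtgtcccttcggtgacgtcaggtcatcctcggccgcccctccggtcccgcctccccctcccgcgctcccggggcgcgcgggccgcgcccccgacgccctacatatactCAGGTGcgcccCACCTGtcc
CLDN7, start without a match: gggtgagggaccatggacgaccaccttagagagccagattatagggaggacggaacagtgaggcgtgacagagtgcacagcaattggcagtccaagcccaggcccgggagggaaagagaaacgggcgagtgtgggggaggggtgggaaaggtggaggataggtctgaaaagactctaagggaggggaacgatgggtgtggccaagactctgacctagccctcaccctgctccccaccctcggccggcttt
The first window holds 4 matches, which begin 174, 135, 20 and 9 bases before the start, and the second holds none. Of 35116 promoter windows of this length, 17.5% hold at least 1 match, 2.53% at least 2, 0.464% at least 3 and 0.122% at least 4. The windows of CLDN4 and CLDN6 hold none. Those of AP1M2, GALNT3, LCP1 and MT4 hold 3, 1, 1 and 2. LCP1 and MT4 were higher in the nullipotent lines but are not among the epithelial genes, so matches were not confined to those. A match describes the letters only, and binding was not measured here.

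**Figure D2:**
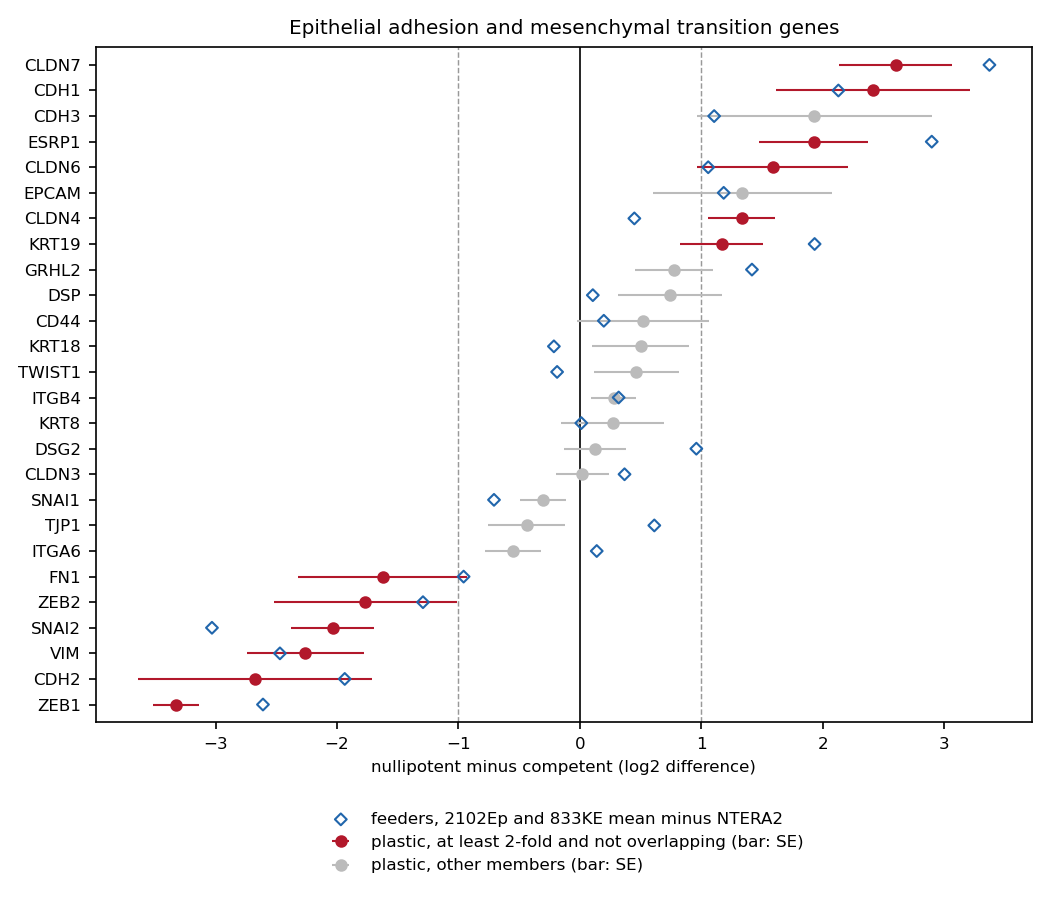
Difference between nullipotent and competent EC lines (log2, horizontal axis) for 26 epithelial and mesenchymal transition genes, with its SE on plastic (3 against 2 arrays) and, as diamonds, the difference on feeders (2 arrays against NTERA2). The 6 genes 2-fold higher and the 6 genes 2-fold lower on plastic, in red, lie on the same side on feeders.

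On feeders the same 12 genes kept their side: both nullipotent arrays were above NTERA2 for the 6 epithelial genes and below it for the 6 mesenchymal ones. Of all clusters 2-fold apart on plastic, 69.0% of the higher and 61.3% of the lower ones kept their side too, beside 32.4% above and 33.7% below over all clusters. CLDN7 was at 10.56 in 2102Ep and 9.43 in 833KE against 6.62 in NTERA2, and VIM at 7.69 and 8.69 against 10.66. The summed linear level of 28 fibroblast and matrix genes was 13361 in NTERA2 on feeders, 7539 in 2102Ep and 6451 in 833KE, and 4325 to 7169 in the plastic arrays; its part in the feeder difference of VIM and FN1 was not tested.

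Targets of p53 stood higher in the nullipotent lines. Of 21 measured genes on this list, 10 were at least 2-fold higher without overlap (47.6%, beside 2.21% of all clusters) and none was 2-fold lower. The median difference over the list was 0.99, beside 0.01 over all clusters. No member passed limma's test, and 11 had an unadjusted p under 0.05. The 10 genes cover the p53 programme: the inhibitor of p53 itself (MDM2), cell cycle arrest (CDKN1A, also known as p21), death (BAX and FAS), DNA repair and nucleotide supply (DDB2 and RRM2B), metabolism and redox control (TIGAR and SESN1), and PHLDA3 and SPATA18.

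SESN1, a sestrin that restrains growth signalling under stress, read 7.83, 8.16 and 8.36 in 2102Ep, 833KE and TERA1, against 6.41 in NCCIT and 6.45 in NTERA2. BAX read 8.93, 8.78 and 9.57, against 7.57 and 7.71. Both competent lines were low alike, more than 1 unit below the lowest nullipotent line. RRM2B, a ribonucleotide reductase subunit, read 8.80, 9.27 and 10.01, against 7.76 and 7.82, and CDKN1A read 7.75, 8.02 and 8.69, against 6.62 and 6.97. MDM2 read 10.48, 10.80 and 10.63, against 9.25 in NCCIT and 9.85 in NTERA2. The differences ran from 1.09 ± 0.25 for MDM2 to 1.91 ± 0.51 for PHLDA3 (SE), and the smallest adjusted p of the list was 0.162, for SESN1.

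The 5 members below 0 are named after their values were seen. TNFRSF10B, a death receptor, differed by -0.52, SESN2 by -0.51, TP53I3 by -0.40 and CCNG1 by -0.37, none of them without overlap. MDM4, which restrains p53, differed by -1.15, with overlap. Measured from the mean of the ES lines, the list's median was 0.26 in 2102Ep, 0.64 in 833KE and 0.84 in TERA1, and -0.22 in NCCIT and -0.26 in NTERA2. The ES lines thus lay between the groups. Without each array in turn, 9 to 11 members were 2-fold higher and the median lay between 0.71 and 1.16. On feeders both nullipotent arrays were above NTERA2 for 9 of the 10 (beside 69.0% of all clusters 2-fold higher on plastic), all but CDKN1A, which read 7.52 in 2102Ep, 9.64 in 833KE and 7.60 in NTERA2.

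**Figure D3:**
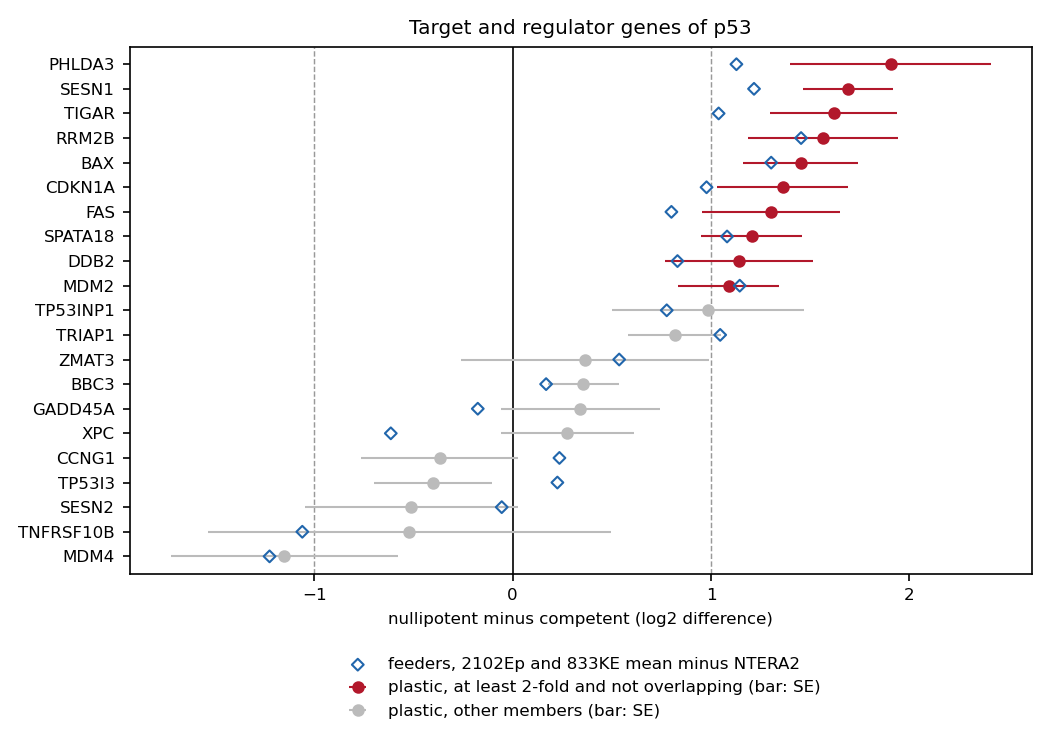
Difference between nullipotent and competent EC lines (log2, horizontal axis) for 21 p53 target and regulator genes, with its SE on plastic and, as diamonds, the difference on feeders. The 10 genes in red are at least 2-fold higher on plastic with no overlap of the lines, and MDM4 has the lowest difference.

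Several genes of the early embryo were higher in the nullipotent lines as well. DPPA2, a chromatin factor of pluripotent cells, read 9.74, 10.27 and 9.83 in 2102Ep, 833KE and TERA1, against 5.93 in NCCIT and 7.57 in NTERA2. TFCP2L1, a transcription factor of naive pluripotency, read 9.25, 9.76 and 8.78, against 7.56 and 7.65. The groups did not overlap, and the ES lines (6.29 ± 0.68 for DPPA2 and 6.29 ± 0.30 for TFCP2L1, SD, n = 6) were nearer the competent lines or below them. The differences were 3.20 ± 0.51 and 1.66 ± 0.32 (SE, adjusted p = 0.187 and 0.247). Of 19 pluripotency and EC markers 3 were 2-fold higher (DPPA2, the ligand GDF3 and the tetraspanin CD9), and of 15 naive factors 3 (TFCP2L1, DNMT3L and KLF17), with none lower in either list. Of all clusters, 2.21% were 2-fold higher. The median of the pluripotency list was 0.56, but 0.25 without 833KE and 0.21 without NCCIT. That of the naive list was 0.62, with 0.93 without NCCIT and 0.30 without NTERA2. KLF17 was high only in 833KE, at 9.01, against 5.18 in 2102Ep, 5.37 in TERA1, 4.54 in NCCIT and 4.91 in NTERA2, and on feeders it was at 5.15 in 833KE too. JARID2, a partner of the Polycomb complex, read 10.11, 10.84 and 10.68, against 9.14 in NCCIT and 9.37 in NTERA2.

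A few germ cell genes were higher in the nullipotent lines, to differing degrees. TDRD1, which works in the piRNA pathway that silences transposons in germ cells, read 5.60, 7.74 and 7.38, against 3.96 in NCCIT and 3.09 in NTERA2. GTSF1, of the same pathway, read 8.17, 10.39 and 6.39, against 3.81 and 3.87. HORMAD1, a protein of meiotic chromosomes, read 8.25, 9.13 and 9.44, against 6.77 and 4.99. All 3 genes were higher in each nullipotent line than in either competent line, and the ES lines were at 3.51, 3.55 and 3.87. The germline list showed no common direction: of 23 measured genes 3 were 2-fold higher (TDRD1, HORMAD1 and MAEL) and the median difference was -0.05, whose sign depended on the scaling and the arrays. Among 11 cancer-testis antigens, which are testis genes found active in tumours, 3 were 2-fold higher (27.3%, beside 2.21% of all clusters). BRDT, a bromodomain protein of spermatogenesis, read 6.67, 9.14 and 5.07, against 3.29 and 3.36, and CTCFL, the testis relative of the insulator protein CTCF, read 5.96, 6.85 and 6.65, against 4.11 and 5.33. On feeders CTCFL was at 6.40 in 2102Ep and 7.39 in 833KE with NTERA2 between them at 6.92. LUZP4 was high in 833KE alone, at 7.33, with the other 4 lines between 2.33 and 3.12.

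Besides LCP1, CD53 and PECAM1 are genes best known from blood cells and vessels. CD53, a tetraspanin of leukocytes, read 9.72, 9.85 and 8.14 in the nullipotent lines, 3.94 in NCCIT and 5.51 in NTERA2. PECAM1, an adhesion molecule of endothelium and platelets, read 6.45, 5.24 and 7.33, against 4.12 and 4.15. The leukocyte marker PTPRC (CD45) lay between 1.86 and 2.02 on all 5 plastic arrays. On a list of 14 blood and endothelial markers, at most 1 was above the array median on any of these arrays. This list holds PECAM1 but neither LCP1 nor CD53. The summed linear level of the 14 markers was 486 to 586 in the nullipotent and 477 to 481 in the competent lines. LCP1 and CD53, which this count and sum leave out, lay above the array median in each nullipotent line. Where their RNA comes from was not tested.

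Other genes of the 14 with the largest positive differences were NLRP7, ANXA1, NRK, HCAR1, FAM9C and VSNL1. NLRP7, known from inherited molar pregnancy, read 8.63, 11.23 and 9.96, against 4.69 in NCCIT and 5.36 in NTERA2. ANXA1, a phospholipid-binding annexin, read 6.58, 8.96 and 9.31, against 4.25 and 3.96. NRK, a kinase on the X chromosome, read 9.81, 9.18 and 9.37, against 4.24 and 7.05. These 3 genes had all nullipotent lines well above both competent lines. HCAR1, a lactate receptor, was high in 833KE (8.28) and TERA1 (7.72), lower in 2102Ep (4.41), and at 3.20 and 2.92 in NCCIT and NTERA2. FAM9C read 5.68, 8.25 and 7.51, against 3.43 and 3.56. VSNL1, a neuronal calcium sensor, rested on NCCIT: it read 10.84, 10.85 and 10.13 in the nullipotent lines, 9.82 in NTERA2 and 4.44 in NCCIT.

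Several genes lower in the nullipotent lines are known from nerve cells. NCAM1, the neural cell adhesion molecule, read 5.26, 5.22 and 5.27 in 2102Ep, 833KE and TERA1, against 7.36 in NCCIT and 7.09 in NTERA2. NRCAM, a related adhesion molecule, read 4.33, 3.75 and 4.33, against 9.42 and 6.68, and NBEA (neurobeachin, a scaffold of membrane traffic in neurons) read 4.53, 4.00 and 4.53, against 7.66 and 7.54. For NCAM1 and NBEA the lines within each group were nearly alike. NCAM1 differed by -1.97 ± 0.19 (SE, adjusted p = 0.101) and NBEA by -3.24 ± 0.24 (adjusted p = 0.0708). STMN2, a microtubule protein of growing axons, was at 10.23 in NCCIT and between 4.41 and 4.80 in the other 4 lines. Of 22 neural genes 4 were 2-fold lower (NRCAM, STMN2, NCAM1 and DCX; 18.2%, beside 3.84% of all clusters) and none higher, with a median of -0.23, or -0.12 without NCCIT. On feeders the list's median was 0.03, with 7 members above NTERA2 in both nullipotent arrays and 8 below. The number of neural genes above the array median was 5 in each nullipotent line, 8 in NTERA2 and 13 in NCCIT.

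PNMA2, first known as an antigen of paraneoplastic disease, had the largest negative difference. It read 5.24, 5.04 and 5.17 in the nullipotent lines, 10.19 in NCCIT and 8.61 in NTERA2, a difference of -4.25 ± 0.47 (SE, adjusted p = 0.123). GLI3, an effector of hedgehog signalling, read 5.93, 5.29 and 4.76, against 8.29 and 8.73. RHOBTB3 read 4.10, 3.95 and 5.57, against 8.13 and 8.05. In each of the 3 genes the lowest competent line was more than 2 units above the highest nullipotent line. PGAP1, an enzyme of GPI anchors, read 5.76, 5.44 and 5.31, against 8.24 and 8.89, and PREX2, an activator of Rac, read 6.14, 4.02 and 5.17, against 7.96 and 8.47. NRP1, a receptor of semaphorins and VEGF, was at 9.92 in NCCIT, 5.80 in NTERA2 and 4.39 to 5.09 in the nullipotent lines, so NCCIT set its difference. CYYR1 read 5.40, 4.96 and 4.65, against 7.88 and 8.15.

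USP3 and APH1B, both among the 14 largest negative differences, are near neighbours on chromosome 15, with CA12 the only other measured gene between them in RefSeq order. USP3, which removes ubiquitin from histones, read 4.70, 5.03 and 5.18 in the nullipotent lines, 8.97 in NCCIT and 8.37 in NTERA2. APH1B, a subunit of gamma-secretase, read 4.75, 5.76 and 4.85, against 8.06 and 8.24. Both genes were low in all 3 nullipotent lines, and the ES lines had 7.15 ± 0.47 and 7.48 ± 0.59 (SD, n = 6). USP3 differed by -3.70 ± 0.27 (SE, adjusted p = 0.0708) and 17 of its 19 probesets separated the groups downward, beside 15.1% of all probesets. CA12 lay at 4.64 in each nullipotent line, 4.94 in NCCIT and 6.18 in NTERA2. Of 407 genes with 1 cluster symbol on chromosome 15, 29 (7.13%) were 2-fold lower and 1 higher, beside 3.18% lower and 2.31% higher of all clusters with 1 symbol. On the whole of chromosome 12, 50 of 794 genes (6.30%) were 2-fold higher and 18 lower. On chromosome 19, 17 of 955 were higher and 1 lower.

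Members of the signalling lists differed in both directions. WNT3, a ligand of the beta-catenin pathway, read 7.51, 7.31 and 7.43 in the nullipotent lines, 5.47 in NCCIT and 5.30 in NTERA2, a difference of 2.03 ± 0.19 (SE, adjusted p = 0.101). AXIN2, a feedback target of that pathway, read 8.31, 8.70 and 8.77, against 7.23 and 7.46. WNT5A, a ligand that acts mostly without beta-catenin, read 5.86, 5.72 and 5.59, against 7.21 and 8.48. So WNT3 and AXIN2 were higher and WNT5A was lower in every nullipotent line on plastic. On feeders WNT3 read 7.40 in 2102Ep, 7.30 in 833KE and 7.28 in NTERA2, a difference of 0.07, while WNT5A kept its side (6.16 and 6.56 against 9.45). Of 36 WNT pathway genes 3 were 2-fold higher (with WNT5B) and 4 lower (WNT5A, SFRP1, FZD3 and TCF7L2). These are 8.33% and 11.1%, beside 2.21% and 3.84% of all clusters. The median of the WNT list was 0.04 and turned to -0.13 without NCCIT. TEAD1 and TEAD4, partners of the growth regulator YAP, went opposite ways: TEAD4 read 9.60, 9.92 and 9.04, against 6.85 and 8.38, and TEAD1 read 6.23, 6.46 and 6.87, against 8.75 and 8.28. ID2, a target of BMP signalling, read 8.71, 6.75 and 6.56, against 9.92 and 9.94. The retinoic acid genes NR6A1, CRABP2 and NRIP1 were the only ones of 22 on their list that were 2-fold apart. All were lower (13.6%, beside 3.84% of all clusters). The tumour suppressor RB1 read 7.18, 7.18 and 7.71, against 8.49 and 8.89.

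NODAL, a ligand that maintains human pluripotency and patterns the embryo, was higher in the nullipotent lines on plastic and lower in them on feeders. On plastic NODAL read 8.29, 6.77 and 8.43 in the nullipotent lines and 3.83 and 3.78 in NCCIT and NTERA2, a difference of 4.03 ± 0.53 (SE, adjusted p = 0.162). On feeders it read 8.61 in 2102Ep, 8.28 in 833KE and 9.23 in NTERA2. NTERA2 thus went from the lowest line on plastic to the highest on feeders. LEFTY1 and LEFTY2, inhibitors and targets of NODAL that were read from probesets after these values were seen, were also lower in both competent lines on plastic at most of their probesets (7 of 8 and 6 of 9, beside 13.2% of all probesets) and high in NTERA2 on feeders. The LEFTY2 probeset with the highest level on feeders read 10.99, 8.17 and 11.03 on plastic in 2102Ep, 833KE and TERA1, 6.53 in NCCIT and 5.36 in NTERA2, and on feeders 12.51, 10.60 and 11.81 in 2102Ep, 833KE and NTERA2. Of 17 genes of the pathway, 2 were 2-fold higher (NODAL and GDF3) and 2 lower (ACVR2A and INHBE). That is 11.8% each way, beside 2.21% and 3.84% of all clusters.

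Further lists are described next. Shares of each list are given in brackets, beside 2.21% higher and 3.84% lower over all clusters. Of 22 HOX genes, which pattern the body axis, 21 had a difference above 0, beside 11183 of 22011 clusters. Their median was 0.26, and only HOXB1 and HOXB13 were 2-fold higher (9.09%). The levels of HOXB1 and HOXB13 stayed at or below 6.96 on plastic. Only 2 of the 22 HOX genes had a mean over the 5 arrays above the median of cluster means. On feeders 12 had both nullipotent arrays above NTERA2 and 5 both below, beside 32.4% and 33.7% of all clusters. Of 27 FGF and ERK genes 3 were 2-fold higher (11.1%) and 1 lower (3.70%). The median was 0.45 on plastic (0.27 without NCCIT) and -0.37 on feeders. The early response genes FOS and EGR1, named after their values were seen, differed by 1.21 and 1.41 on plastic, whereas on feeders FOS was at 9.60 in 2102Ep, 9.25 in 833KE and 10.01 in NTERA2, and EGR1 at 8.03, 8.18 and 8.34. Of 17 genes of the primed state and early ectoderm only CDH2 was 2-fold apart (5.88% lower). The median was -0.36, with -0.60 without NCCIT and -0.21 without NTERA2. Of 25 splicing regulators 4 were 2-fold lower (PTBP2, ELAVL2, SNRPN and RBM24) and 1 higher (ESRP1). Of 311 genes whose symbols begin with ZNF, 4 were 2-fold higher (1.29%) and 8 lower (2.57%). Both shares are below those of all clusters. The ZNF median was -0.10 (-0.06 without 833KE). In the plot of list medians, the p53, metallothionein and naive lists lie highest and the primed list lowest on plastic.

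**Figure D4:**
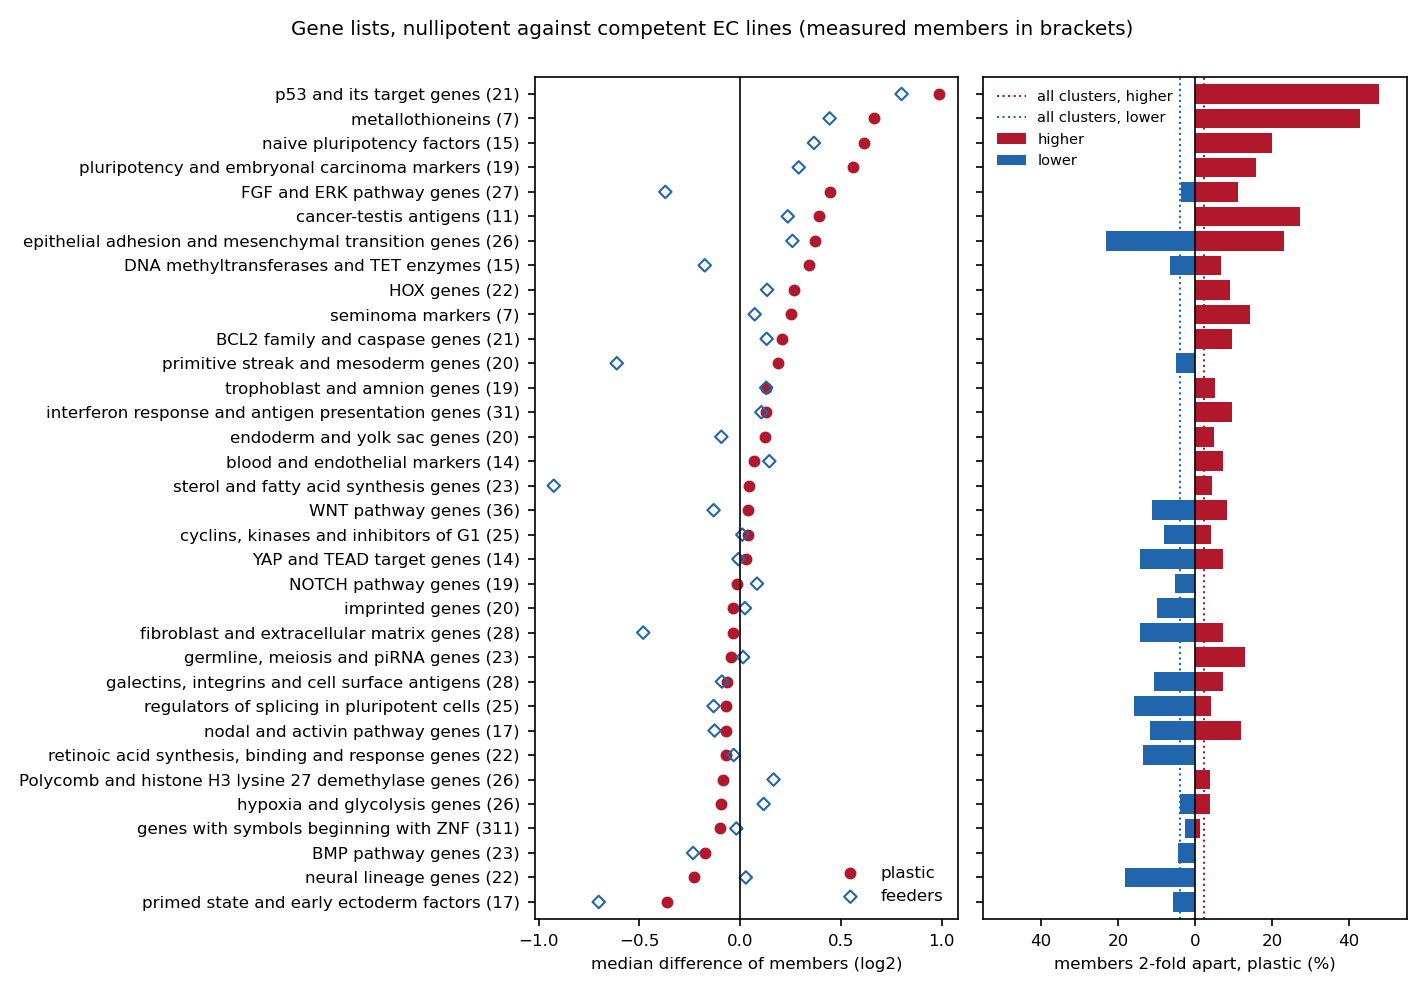
For 34 gene lists, the left panel plots the median difference of members between nullipotent and competent lines (log2) on plastic and on feeders, and the right panel the percentage of members at least 2-fold higher or lower on plastic, with dotted lines for all clusters (2.21% and 3.84%). The p53 list has the highest median on plastic and on feeders, 0.99 and 0.80.

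Over all clusters, feeder-grown arrays of the same lines mostly gave the same side. Of the 487 clusters higher on plastic, 336 (69.0%) had both nullipotent feeder arrays above NTERA2, and 52 (10.7%) had both below. Of the 846 lower ones, 519 (61.3%) had both below and 115 (13.6%) both above. Among the 28 genes with the largest differences, 26 kept their side; NODAL turned and NRP1 was split. This check repeats 3 of the lines and adds no new line, and its competent arm is 1 array. NTERA2 and 2102Ep on feeders also carry early array codes in the labels (11 and 13), while 833KE on feeders and all 5 plastic arrays carry later ones (18 to 27), so code and growth condition cannot be told apart for those arrays.

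Relative to ES lines, the higher and the lower genes behaved differently. Of the 487 clusters higher in nullipotent lines, 70.6% had an ES mean nearer the competent mean, beside 46.3% of all clusters. Of the 846 lower ones, it was 50.0%. Growth condition differs between the ES and plastic arrays. The nullipotent lines exceeded the ES mean at the 487 clusters by a median of 1.09, whereas the competent lines were below it by a median difference of -0.29.

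A few large differences belonged to TERA1 alone. DEPDC1, a gene of dividing cells, read 1.75 in TERA1 and 8.58, 9.01, 9.48 and 9.76 in 2102Ep, 833KE, NCCIT and NTERA2, so its place among the lower genes came from 1 line. TERA1 was at least 4-fold below every other plastic line at 17 of 14423 clusters with 1 symbol, XIST and Y-linked genes set aside (0.118%), and 10 of these 17 are histone genes of chromosome 6, out of 60 histone clusters measured. In RefSeq order the 14 histone clusters from H2BC11 to H2AC17 were all lowest in TERA1, with gaps to the next line from -1.36 to -4.93. The other 31 histone clusters of chromosome 6 were lowest in TERA1 in 4 cases, with gaps no wider than -1.19. H2BC14, in the low stretch, read 12.97, 12.33 and 7.41 in 2102Ep, 833KE and TERA1, and 12.72 and 13.20 in NCCIT and NTERA2. These histone genes were chosen after their values were seen, and near-identical histone genes may share probes.

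**Figure D5:**
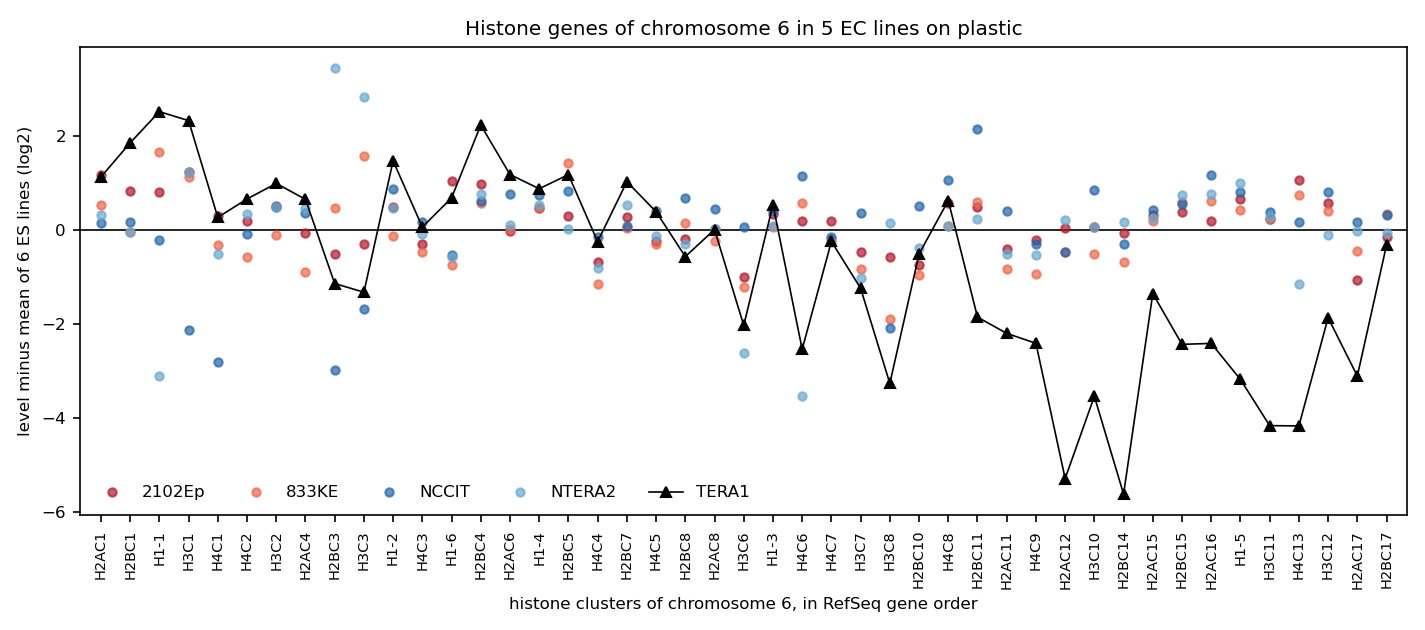
Level minus the mean of 6 ES lines (log2, vertical axis) of 45 histone clusters of chromosome 6 in gene order (horizontal axis), 1 point for each EC line on plastic. TERA1, joined by a line, is the lowest at all 14 clusters from H2BC11 to H2AC17.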

How the data were processed

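The deposited values are log2 levels from Affymetrix Human Exon 1.0 ST arrays, 22011 transcript clusters at gene level and 287329 probesets at exon level. Per the submitters' processing notes the authors used RMA, Affymetrix Expression Console and limma; versions, RMA settings and genome build are not given in the sources used here, and the log base was inferred from how far the values spread. Both levels come from the same hybridisations. No value was transformed. Of the clusters 14432 had 1 gene symbol, 2408 several and 5171 none; genes are named only from the first kind, and 14404 matched RefSeq by Entrez number.

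The 3 nullipotent and 2 competent plastic arrays were compared with limma 3.58.1 in R 4.3.3 (lmFit, eBayes, two-sided, Benjamini-Hochberg over all clusters, threshold 0.05); tables used pandas 2.3.3 and figures matplotlib 3.10.9 in Python 3.11.15. Simulated data had these means and spreads, with independent noise. In them 100 clusters each were changed by 2 up, 2 down, 5 up and 5 down at once. Of the 100 changed by 2 up 61 were called and of the 100 changed by 5 up 92, with 9 false calls among the rest of the 22011. The adjusted p depends on how many clusters change, so these shares do not give the chance of a call in the real data. Feeder arrays were set side by side with no test. Named genes are the 14 highest and 14 lowest non-overlapping differences among clusters with 1 symbol whose higher mean exceeded 6.27, the median of cluster means, called ones first, and for each of 34 lists its called members, at most 4, or failing that the 2 of lowest p; further list members 2-fold apart are named with their counts. A gene with several clusters is read from the brightest. The members and lists were chosen with earlier results of these data known. No detection calls entered, so how far a low level lies above background is not known, and 5 arrays set the precision; with lines as replicates, p-values measure the spread between lines.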

Additional observations from a re-analysis of the deposited data

Results flagged for a closer look

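For 9 of the 86 genes named by rule, the groups changed sides between growth conditions. Every nullipotent array lay on one side of the competent lines on plastic and on the other side of NTERA2 on feeders. Of all clusters 2-fold apart on plastic, 10.7% of the higher and 13.6% of the lower ones turned in this way too. The difference between growth conditions was not tested, and the feeder arm has 1 competent array. The differences on feeders, with those on plastic after them, were -0.78 and 4.03 for NODAL, -1.61 and 0.75 for its inhibitor CER1, -0.34 and 2.29 for the drug transporter ABCG2, and -0.40 and 0.55 for CGA, a subunit of gonadotropins. They were -0.57 and 1.12 for IFITM1, an interferon-induced membrane protein, -0.89 and 1.15 for SQLE, an enzyme of sterol synthesis, and -0.16 and 1.84 for LDHA, lactate dehydrogenase, which was low on plastic in NCCIT alone (9.22 against at least 12.63). AMOT, a regulator of YAP, had 0.51 on feeders and -2.26 on plastic, and ELAVL2, a neuronal RNA-binding protein, 0.55 and -1.28.

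Among the 6 ES lines 1 line stood far from the others at 3 named genes. Shef5 was low for USP3 (6.25, with a median of 7.34 in the others) and for NBEA (5.94, with 7.54), and H9 was high for STMN2 (6.99, with 5.46). Chance flags about 1 in 20 groups, and 28 genes were examined.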

How the results depend on the processing

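The count of called clusters depended on the arrays used. The 3 calls became 223 with the ES arrays added to the fit and 214 with all 14 arrays sharing one spread; 16 with the 8 EC arrays and the line as a random block; 7 among clusters with 1 symbol; and 2 with arrays centred. Quantile normalisation or an intensity trend gave the same 3. Leaving out dim clusters also gave 3, of which 2 were among the main 3. In that run ZEB1 was itself left out as dim, and USP3 was called (limma, adjusted p = 0.0192). Without each plastic array in turn the count ran from 0 to 5. The 1333 clusters 2-fold apart became 626 without dim clusters, 791 with 1 symbol, and 1491 to 3014 without each array, the highest without NTERA2. The feeder share (64.1%) and the ES share (57.5%) stayed on their side of the share over all clusters in each alternative run, and no named gene reversed under another fit. List medians changed sign for 8 of 34 lists under centring and 5 under quantile normalisation, none of them the p53, epithelial, pluripotency or naive list. No paired analysis was possible because each replicate number stands for a different cell line in each group. Array number and unknown background limit all values.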
